A study of Mus musculus with 768 samples.

Results

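The transcripts of 4 effector cytokines, Ifng, Tnf, Csf2 and Csf1, were followed in NK cells sorted from tumors. The genes were chosen by name and not by their values, and they are 4 of the 24490 gene entries listed for each cell. The cells were NK1.1+CD3- cells from MTAP1A tumors, a fibrosarcoma line made from a Tap1-deficient mouse and inoculated into C57BL/6 mice. Tumors of 3 WT mice were pooled for one plate, and tumors of 3 PD-1-/- mice, which carry a germline deletion in Pdcd1, for the other. The libraries were made by SMART-SEQ2, which copies whole polyadenylated transcripts of 1 cell per well without molecular identifiers. A well was kept when it had 1000 to 3500 detected genes, counting genes above 0 in at least 3 of the 768 wells, and this left 726 cells, 360 of them WT and the others PD-1-/-. Since each genotype is a single pool and a single plate, the effects of genotype and plate cannot be told apart. Cells are not replicates, and no test was made between the genotypes. The exact 95% intervals given after shares cover the counting of cells only.

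NK cells act by killing and by secreting cytokines. Ifng encodes IFN-γ, which raises MHC class I on tumor cells and activates macrophages. Tnf encodes the inflammatory cytokine TNF, which is made as a membrane protein and shed by ADAM17. Csf2 and Csf1 encode GM-CSF and M-CSF, growth factors of myeloid cells. IFN-γ, TNF and GM-CSF are made by NK cells soon after activation through receptors such as NKp46 and NKG2D or by interleukins, and cells that make several of them together are called polyfunctional. Their mRNAs are short-lived, since AU-rich elements in the 3′ UTR, built from the pentamer AUUUA, are bound by decay factors of the Zfp36 family.

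The AU-rich elements set Csf1 apart from the other 3 genes in sequence. In the longest annotated coding transcript with a 3′ UTR of each gene (GENCODE vM21, GRCm38), the 3′ UTR of Csf2 held 9 ATTTA pentamers, that of Tnf 8 in 764 bases, that of Ifng 6 in 631 bases, and that of Csf1 4 in 2111 bases. Over 20813 protein-coding genes the median was 1.25 pentamers per kb. The density reached 28.4 per kb in Csf2, matched or passed by 0.0625% of genes, 10.5 in Tnf (1.08% of genes) and 9.51 in Ifng (1.39%), against 1.89 in Csf1 (37.8%). The 30 bases with the most pentamers in each 3′ UTR are shown on the strand of the gene, with the pentamers in capitals.

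Ifng, chr10:118445330-118445359, plus strand: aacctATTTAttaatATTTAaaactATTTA
Tnf, chr17:35199679-35199708, minus strand: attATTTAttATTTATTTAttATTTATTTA
Csf2, chr11:54247329-54247358, minus strand: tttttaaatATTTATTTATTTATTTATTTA
Csf1, chr3:107741109-107741138, minus strand: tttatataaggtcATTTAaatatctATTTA

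All 5 pentamers of the Csf2 stretch overlapped their neighbours, whereas the 3 of Ifng and the 2 of Csf1 stood apart. The promoters are shown next, from 250 bases before to 50 bases after the start of each gene (RefSeq, GRCm38.p6), because NFAT and NF-κB bind close to the start of several of these genes after NK cell activation. Capitals mark the NFAT core GGAAA on either strand, read as TTTCC on the other.

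Ifng, chr10:118440796-118441095, plus strand: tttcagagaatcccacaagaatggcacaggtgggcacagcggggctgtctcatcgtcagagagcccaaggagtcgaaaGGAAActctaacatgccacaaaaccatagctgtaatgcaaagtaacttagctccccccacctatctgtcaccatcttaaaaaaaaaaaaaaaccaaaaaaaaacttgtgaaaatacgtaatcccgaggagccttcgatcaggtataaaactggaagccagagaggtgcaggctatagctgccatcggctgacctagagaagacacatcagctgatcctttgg
Tnf, chr17:35201958-35202257, minus strand: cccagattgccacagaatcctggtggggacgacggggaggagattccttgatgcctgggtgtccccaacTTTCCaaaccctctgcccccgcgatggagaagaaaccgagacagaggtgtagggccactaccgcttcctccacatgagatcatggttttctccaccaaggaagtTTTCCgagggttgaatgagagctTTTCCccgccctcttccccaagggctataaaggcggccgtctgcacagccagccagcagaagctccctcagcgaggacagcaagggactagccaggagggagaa
Csf2, chr11:54249850-54250149, minus strand: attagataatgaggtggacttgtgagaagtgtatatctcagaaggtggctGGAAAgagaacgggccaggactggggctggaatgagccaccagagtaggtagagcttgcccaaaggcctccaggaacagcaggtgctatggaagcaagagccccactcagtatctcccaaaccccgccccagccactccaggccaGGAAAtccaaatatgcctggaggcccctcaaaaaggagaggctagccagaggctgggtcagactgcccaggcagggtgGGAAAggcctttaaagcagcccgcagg
Csf1, chr3:107760420-107760719, minus strand: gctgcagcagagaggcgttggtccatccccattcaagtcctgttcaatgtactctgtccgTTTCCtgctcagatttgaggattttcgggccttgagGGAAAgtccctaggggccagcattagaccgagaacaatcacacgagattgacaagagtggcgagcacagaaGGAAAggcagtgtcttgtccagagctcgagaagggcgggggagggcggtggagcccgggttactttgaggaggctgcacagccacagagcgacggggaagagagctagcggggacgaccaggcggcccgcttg

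The core occurred 3 times each in the Tnf, Csf2 and Csf1 windows and 1 time in that of Ifng, and 61.3% of all 32851 promoters of this length held at least 1. The TATA box TATAAA, on either strand, was found in the Ifng and Tnf windows and in 13.6% of all promoters, and the AP-1 site TGANTCA in none of the 4 windows and in 7.81% of promoters. The STAT core TTCNNNGAA was in the Ifng window and in 8.30% of promoters. The kappa B core (GGG and CC with 5 bases between) gave 3 matches in Tnf, of which 2 are the same bases read on both strands, 1 in Csf2 and 5 in Csf1, partly over NFAT cores, and in 50.8% of promoters. Only 1 annotated start per gene was used, and sites near any other start were not searched. These matches are letters in a window and say nothing of binding.

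The cells carried NK cell transcripts. Fcer1g was present in all WT and 99.7% of PD-1-/- cells, Klrk1 (NKG2D) in 96.7% and 98.4%, and Ncr1 (NKp46) in 90.8% and 91.8%. The least frequent of the 8 NK cell markers listed was Eomes, in 61.9% and 55.2%. B cell, neutrophil and fibrosarcoma markers were each found in at most 2.78% of cells of a genotype. Myeloid markers reached 6.39% (Cd68 in WT cells), and at least 1 of the CD3 chains Cd3d, Cd3e and Cd3g was detected in 65 WT and 83 PD-1-/- cells, in spite of the CD3- gate. The values were RPKM, which divide the reads of a gene by its length and by the reads mapped in that cell. Since they rose in steps, the number of reads per cell could be estimated. The median was 314610 in WT and 335136 in PD-1-/- cells, but 11 WT and 5 PD-1-/- cells passed the limit on detected genes with only 1421 to 11432 reads. In such a cell 1 read gives a high RPKM. They held 2 of the Ifng, 1 of the Tnf, 2 of the Csf2 and 6 of the Csf1 values below, and the medians are given without them where they moved.

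Ifng was the most frequent of the 4 transcripts. On the WT plate 93 of 360 cells held it (25.8%, 21.4 to 30.7), and on the PD-1-/- plate 31.1% did (26.4 to 36.2). The intervals overlapped, and no genotype difference in the share can be read from them. Where it was present, Ifng ranged from 1.74 RPKM over a median of 220.3 to 2729 RPKM in WT cells, and from 1.62 over a median of 286.6 to 10041 RPKM in PD-1-/- cells. The values of 432.9 and 350.8 RPKM in WT wells A9 and A22 came from cells of under 20000 reads, without which the WT median was 217.6. The lowest of these values rest on 1 read, worth about 2.56 RPKM in a cell of median depth, and 13 Ifng cells had only 1. At least 10 reads were present in 84.9% of WT and 89.5% of PD-1-/- Ifng cells, so most detections lay well above a single read. Ifng was found in more cells than 85.7% of the 18475 entries detected in any kept cell.

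Tnf was as frequent on one plate as on the other, with 39 cells each (WT 10.8%, 7.82 to 14.5; PD-1-/- 10.7%, 7.69 to 14.3). Its level where present ran from 1.58 over a median of 102.9 to 342.4 RPKM in WT cells, and from 1.36 over a median of 83.2 to 678.7 RPKM in PD-1-/- cells. Tnf levels were thus spread from single reads to well over the median of Ifng on both plates. The value of 83.2 RPKM itself came from a cell of under 20000 reads (well P5), and without it the median was 82.5. Of the 78 Tnf cells 13 had 1 read, and 49 had at least 10. Of the Tnf values 66.7% fell on whole multiples of 1 step and the rest did not. No other step size was found for Tnf, so the reason is not settled and its read numbers are approximate.

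Csf2 was rarer, with 21 WT cells (5.83%, 3.65 to 8.78) and 18 PD-1-/- cells (4.92%, 2.94 to 7.66). Its level ran from 2.56 over a median of 82.5 to 665.8 RPKM in WT cells, and from 4.55 over a median of 93.7 to 622.7 RPKM in PD-1-/- cells. The highest WT value came from 1 read in a cell of 1447 reads, another of 168.6 RPKM was in the shallow well A9, without both the WT median was 81.03, while the highest PD-1-/- cell had 335877 reads. The next WT cell had 299.4 RPKM of Csf2 from 69 reads. At least 10 Csf2 reads were present in 71.4% of WT and 94.4% of PD-1-/- Csf2 cells.

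Csf1 was the rarest of the 4, with 9 WT cells (2.50%, 1.15 to 4.69) and 11 PD-1-/- cells (3.01%, 1.51 to 5.31). Its level ran from 3.26 over a median of 87.3 to 425.6 RPKM in WT cells, and from 3.21 over a median of 57.7 to 334.3 RPKM in PD-1-/- cells. The highest value of each genotype came from about 2 reads or fewer in a cell of under 1500 reads. Of the 9 WT and 11 PD-1-/- Csf1 cells, 4 and 2 were among the cells of under 20000 reads. Outside them the median was 43.03 RPKM in 5 WT and 53.7 RPKM in 9 PD-1-/- cells, and the highest Csf1 levels were 106.1 RPKM in WT and 231.7 RPKM in PD-1-/- cells. Csf1 values fell on more than 1 step size, corresponding to lengths of about 3305, 2116 and 2033 bases, so the read numbers of Csf1 are approximate too.

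**Figure D1:**
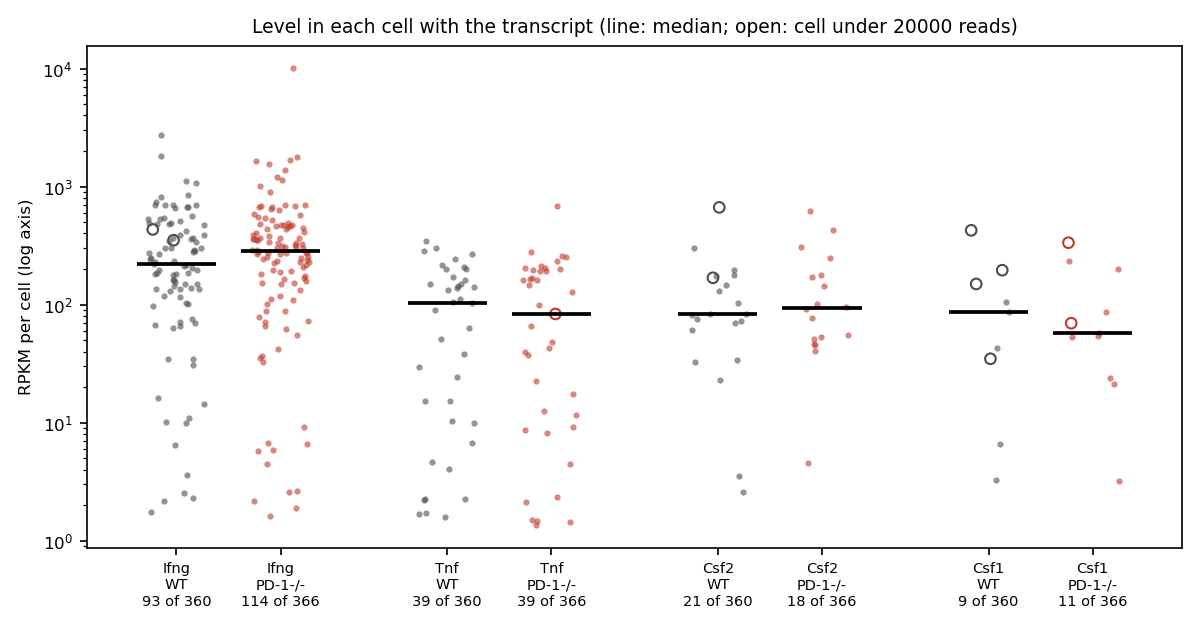
RPKM (log axis) in every kept cell in which Ifng, Tnf, Csf2 or Csf1 was detected, by genotype, with the number of such cells of all kept cells under each column. The line is the median and open circles are cells of under 20000 reads; the medians lie at 220.3 and 286.6 RPKM for Ifng and between 57.7 and 102.9 RPKM for the others, and open circles carry the highest values of Csf1 in both genotypes.

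Of the 4 genes Ifng alone had a mean over all kept cells more than 1.5-fold apart between the plates. Mean Ifng was 85.8 RPKM on the WT and 139.8 RPKM on the PD-1-/- plate, which gives 0.70 on the log2 scale with a pseudocount of 1 RPKM. A mean at least 1.5-fold higher in PD-1-/- cells was seen for 10.96% of the 12030 entries that averaged 1 RPKM or more on a plate. One at least 1.5-fold lower was seen for 13.99%. Of the 1540 such entries found in about as many cells as Ifng, 1.82% had a ratio at least as far from 0, in either direction. A single PD-1-/- cell of 5056 Ifng reads held 19.6% of the Ifng sum of its plate, and without the highest cell of each plate the log2 ratio was 0.52, which is below 1.5-fold (0.58). It also fell short of 1.5-fold with every well kept (0.37) and in plate rows I to P alone (0.47), and stayed above 0 in each of these. Mean Tnf was 11.5 and 12.4 RPKM (log2 ratio 0.10), mean Csf2 7.44 and 7.53 RPKM (0.02) and mean Csf1 2.92 and 3.10 RPKM (0.06). For Csf2 and Csf1 these ratios rest on few cells, since the top cell held 24.9% and 40.5% of the WT sums. The ratios of Tnf, Csf2 and Csf1 took either sign under other settings. Of the entries found in about as many cells as each of them, 81.1%, 98.3% and 94.2% had ratios at least as far from 0. The shares of cells had overlapping intervals for all 4 genes. Over all 12030 entries, 0.565% had a higher and 0.590% a lower share in PD-1-/- cells with intervals apart.

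At least 1 of the 4 transcripts was present in 38.6% (33.6 to 43.9) of WT cells, and in PD-1-/- cells in 41.8% (36.7 to 47.04). Most of these cells had just 1. There were 21 WT cells (5.83%, 3.65 to 8.78) with at least 2 of them, and 24 such PD-1-/- cells (6.56%, 4.25 to 9.60). Multiplying the 4 shares gives 19.6 and 22.5 such cells, so that polyfunctional cells as a whole were about as many as the separate shares give. The commonest pair was Ifng with Tnf, found without the other 2 genes in 9 WT and 14 PD-1-/- cells. Tnf with Csf2 and no Ifng was seen in 2 cells of each genotype, and Ifng with Csf1 in 5 WT and 2 PD-1-/- cells.

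There were 7 cells, 2 WT and 5 PD-1-/-, with 3 of the transcripts, where the product of the shares gives 2.10 cells over both plates. In 6 of them the 3 were Ifng, Tnf and Csf2. The cell with the highest levels, from the PD-1-/- plate, had 1687 RPKM of Ifng, 210.6 of Tnf and 622.7 of Csf2. Another PD-1-/- cell had 669.7, 250.9 and 307.7 RPKM of the same transcripts. In contrast, a WT cell of this kind had 1 read of Ifng beside 29 of Tnf and 64 of Csf2, and a PD-1-/- cell had 3, 1 and 21. CD3 chain transcripts were present in 2 of the 7. No cell had all 4 transcripts, and none had Csf2 with Csf1 (0 of 726 cells, which allows a share of up to 0.413%).

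**Figure D2:**
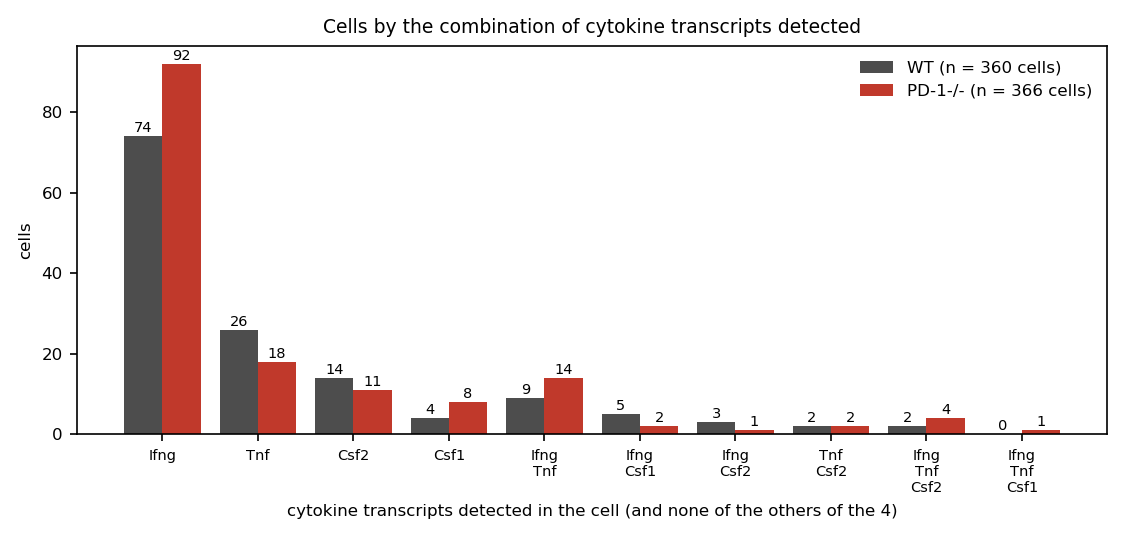
Number of kept cells (vertical axis) with each combination of the 4 transcripts, for WT and PD-1-/- cells. Ifng alone was the largest class with 74 and 92 cells, and Ifng with Tnf was the largest class of more than 1 transcript with 9 and 14.

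Over both plates, Tnf and Csf2 were found together more often than their separate shares give. On the WT plate alone the ratio was larger for Ifng and Csf1, with 5 cells against 2.33 from the product, than for Tnf and Csf2, with 4 against 2.27. Tnf was present in 10 of 39 cells with Csf2 (25.6%, 13.04 to 42.1) and in 68 of 687 cells without it (9.90%, 7.77 to 12.4), and these intervals did not overlap. Cells with Csf2 had a higher share, with intervals apart, for 1.97% of the 9745 entries found in at least 20 cells. The same background was 4.26% for cells with Tnf, 0.308% for cells with Ifng and 1.21% for cells with Csf1, and no other ordered pair of the 4 genes had such intervals over both plates before thinning. The same direction was seen on each plate, with 19.05% against 10.3% in WT and 33.3% against 9.48% in PD-1-/- cells, although the WT intervals overlapped. After each cell was thinned to 100000 reads the shares were 26.5% and 8.59%. Cells with Csf2 had more detected genes than the others (median 2564 against 2247), and this moves with the result. Within quartiles of detected genes the product of the shares summed to 5.59 cells with both, against 4.19 overall and 10 observed. Among cells with at least 2265 detected genes Tnf was present in 31.03% (15.3 to 50.8) of cells with Csf2 and 14.97% (11.3 to 19.3) of the others, and there the intervals overlapped.

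Ifng and Tnf were together in 11 WT and 19 PD-1-/- cells, where the products of their shares give 10.1 and 12.1 cells. Tnf was present in 11.8% (6.05 to 20.2) of WT cells with Ifng and in 10.5% (7.08 to 14.8) of those without. In PD-1-/- cells the values were 16.7% (10.3 to 24.8) and 7.94% (4.92 to 11.99), with intervals that overlapped. A difference between the plates in this pairing was not tested. Ifng and Csf2 were no more often together than their shares give, with 10 cells observed and 11.1 from the product, and Csf2 was present in 4.83% (2.34 to 8.70) of cells with Ifng and 5.59% (3.77 to 7.93) of cells without. For Csf1 and Ifng 8 cells were observed and 5.70 came from the product. On the WT plate 5 of 9 Csf1 cells had Ifng (55.6%, 21.2 to 86.3), against 25.1% (20.6 to 29.9) of the other cells, with intervals that overlapped. The 4 without Ifng were the cells of under 20000 reads, so that after thinning all 5 that remained had Ifng (100%, 47.8 to 100), against 22.8% (18.4 to 27.7). Of these 5 cells 3 (wells A4, A13 and A19) lay in row A, where Ifng was frequent on this plate (64.7% of cells). Of 9 thinned PD-1-/- Csf1 cells 3 had Ifng (33.3%, 7.49 to 70.1).

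Level did not go with co-detection in the same way for each gene. Tnf had a lower median in cells that also had Ifng, 37.03 RPKM in 19 PD-1-/- cells against 145.3 RPKM in 20 without, and it was lower in WT cells with Ifng too (51.1 RPKM in 11 cells, below the WT median of 102.9). The ranges overlapped widely, since Tnf reached 265.6 and 250.9 RPKM in cells with Ifng. Csf2 had a higher median in the cells with Ifng, 130.2 RPKM in 5 WT cells against 73.4 in 16 (116.2 against 72.2 without the cells of under 20000 reads), and 171.2 RPKM in 5 PD-1-/- cells against 76.99 in 13. Ifng itself was at a median of 303.1 RPKM in PD-1-/- cells with Tnf and 281.3 RPKM in those without. Over the log2 values of all kept cells the correlation of Ifng with Tnf was -0.02 on the WT plate (n = 360) and 0.10 on the PD-1-/- plate (all other cells), and that of Tnf with Csf2 was 0.11 and 0.21.

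**Figure D3:**
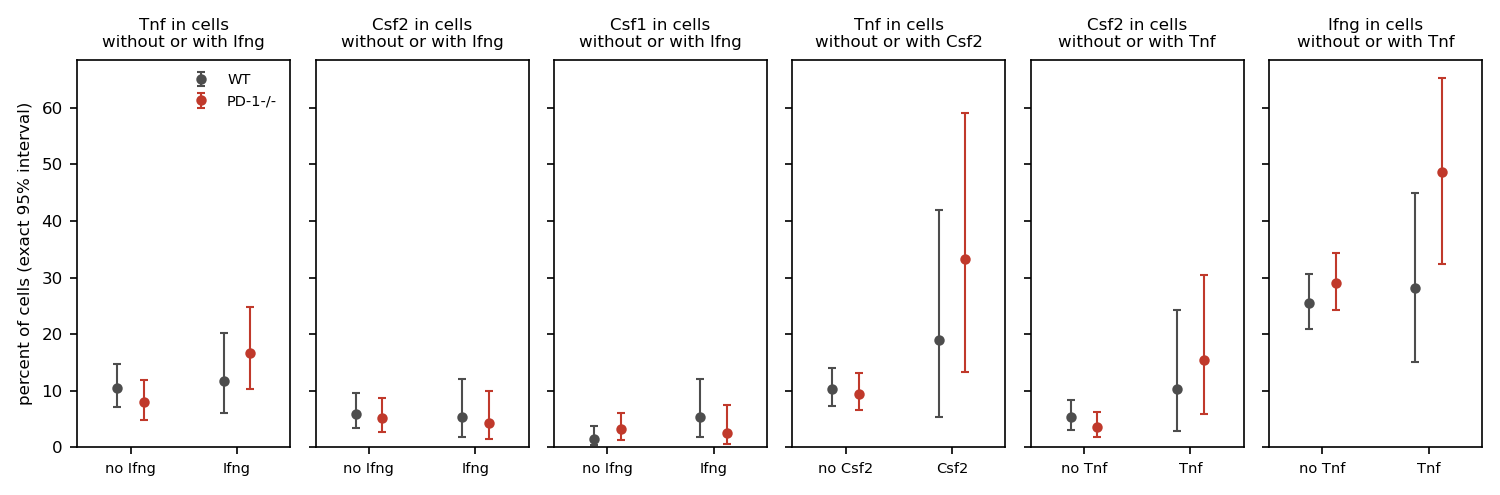
Percent of cells with one transcript (vertical axis, exact 95% intervals) among cells without and with another, for 6 ordered pairs, WT in grey and PD-1-/- in red. In cells with Csf2 the share with Tnf is 19.05% in WT and 33.3% in PD-1-/- cells, above the 10.3% and 9.48% in cells without Csf2.

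The share of cells with Tnf and Csf2 rose with the number of detected genes, and that of Ifng did not. In the quartile of cells with 1076 to 1922 detected genes Tnf was present in 2.20% (0.602 to 5.53), and in the quartile with 2637 to 3495 in 20.9% (15.2 to 27.5). Csf2 went from 1.65% (0.341 to 4.74) to 9.34% (5.54 to 14.5). Ifng was present in 30.2% (23.6 to 37.5) of the lowest and 29.1% (22.6 to 36.3) of the highest quartile. The median number of reads was 290880 in the lowest and 337650 in the highest quartile. Cells with at least 2 of the transcripts made up 1.65% of the lowest and 11.5% of the highest quartile.

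**Figure D4:**
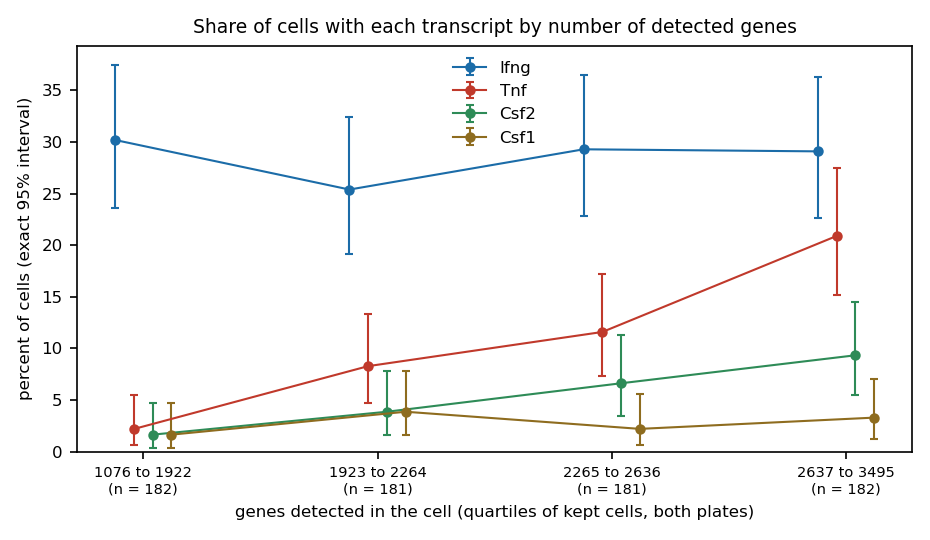
Percent of kept cells of both plates with each transcript (vertical axis, exact 95% intervals) in quartiles of the number of detected genes. Tnf goes from 2.20% to 20.9% and Csf2 from 1.65% to 9.34%, while Ifng stays between 25.4% and 30.2%.

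Csf1 was found more often in cells with Cxcr6 or with Itga1, transcripts known from tissue-resident lymphocytes. With Cxcr6, which encodes a chemokine receptor, Csf1 was present in 10 cells (9.52%, 4.66 to 16.8), and without it in 10 of 621 (1.61%, 0.775 to 2.94). With Itga1, which encodes the integrin CD49a, the share was 7.25% (3.53 to 12.9), against 1.70% (0.818 to 3.11) in the other cells. Both pairs of intervals lay apart, as they did for 2.40% (Cxcr6) and 3.58% (Itga1) of the 9745 entries, counting higher shares. They lay apart too after thinning to 100000 reads, which left out the shallow cells, with 9.09% against 0.852% for Cxcr6 and 7.52% against 0.723% for Itga1. On single plates the direction was the same, but the intervals overlapped for Itga1 on both and for Cxcr6 in PD-1-/- cells (7.79%, 2.91 to 16.2, against 1.73%, 0.564 to 3.99). In cells with Pdcd1 transcript Csf1 was present in 7 of 56 cells (12.5%), against 13 of 670 others (1.94%), with intervals apart, beside 3.10% of entries. Among WT cells with Pdcd1 3 of 9 had Csf1, all in row A. On the PD-1-/- plate the shares were 8.51% (2.37 to 20.4) and 2.19% (0.887 to 4.47), in the same direction but with intervals that overlapped. The deletion spans exons 3 and 4 of Pdcd1, and a value per gene does not say from which exons its reads came. CD3 chain transcripts went with Csf1 too, with 6.08% of CD3 cells and 1.90% of other cells, although these intervals overlapped. Of 10 T cell markers 9 were detected on the WT plate, with Themis at 0, and all on the other, and of 4 fibrosarcoma markers 4 and 3, with Col1a2 at 0 in PD-1-/- cells. The mean summed level of the T cell markers was 760.9 and 1377 RPKM in WT and PD-1-/- Csf1 cells, against 247.9 and 399.2 RPKM over all cells, and that of the fibrosarcoma markers 127.6 and 86.3 RPKM against 10.9 and 5.41. The median T cell sums of the Csf1 cells were 2.57 and 0 RPKM, and those of the fibrosarcoma and myeloid markers 0, so a few cells carried these means. The median sum of 8 NK cell markers was lower in Csf1 cells, at 9617 and 7923 RPKM against 17316 and 17169 over all cells. It was also lower in Tnf cells (14797 and 12571 RPKM) and Csf2 cells (15003 and 12805 RPKM), but not in Ifng cells (19263 and 17367 RPKM). The mean sum of 5 myeloid markers was 248.7 and 19.7 RPKM in Csf1 cells against 40.1 and 15.9. In Csf2 cells this mean was 86.5 and 12.1 RPKM, and in Tnf cells the mean T cell sum was 253.6 and 751.4 RPKM. The part of these markers in the Csf1 values was not tested.

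Ifng was found in 36.96% (28.9 to 45.6) of cells with Itga1 and 26.5% of the others. The interval of the others reached up to 30.3%, so these intervals overlapped. With Cxcr6 the share was 36.2% (27.04 to 46.1), against 27.2% (23.7 to 30.9), and the intervals overlapped. Csf2 was present in 5.80% (2.54 to 11.1) of cells with Itga1 and in 5.27% (3.61 to 7.40) of the others, and these intervals overlapped. Of the marker groups compared, Tnf had its largest share, 23.5% (10.7 to 41.2), in the 34 cells with at least 2 cycling markers. The share in all other cells was 10.1% (7.97 to 12.6), and these intervals overlapped. After thinning, which left 27 of the cycling cells, they lay apart, at 29.6% (13.8 to 50.2) and 8.65% (6.62 to 11.1). Of the thinned cycling cells 2 of 7 WT cells had Tnf, with intervals that overlapped, and 6 of 20 PD-1-/- cells, with intervals apart. Before thinning a higher share with intervals apart was seen in cycling cells for 3.50% of entries, and this was not computed after thinning. The cycling cells had more detected genes, with medians of 2746 against 2248, a number with which Tnf rose in the quartiles, and its part in this share was not tested. Cells with at least 2 of the 4 cytokines were 12.3% (7.34 to 18.99) of the cells with Itga1 and 4.76% (3.19 to 6.81) of the cells without, and these intervals lay apart, as for 3.58% of entries. On each plate alone they overlapped, and cells with Itga1 had more detected genes (median 2458 against 2229), and the part of this was not tested.

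**Figure D5:**
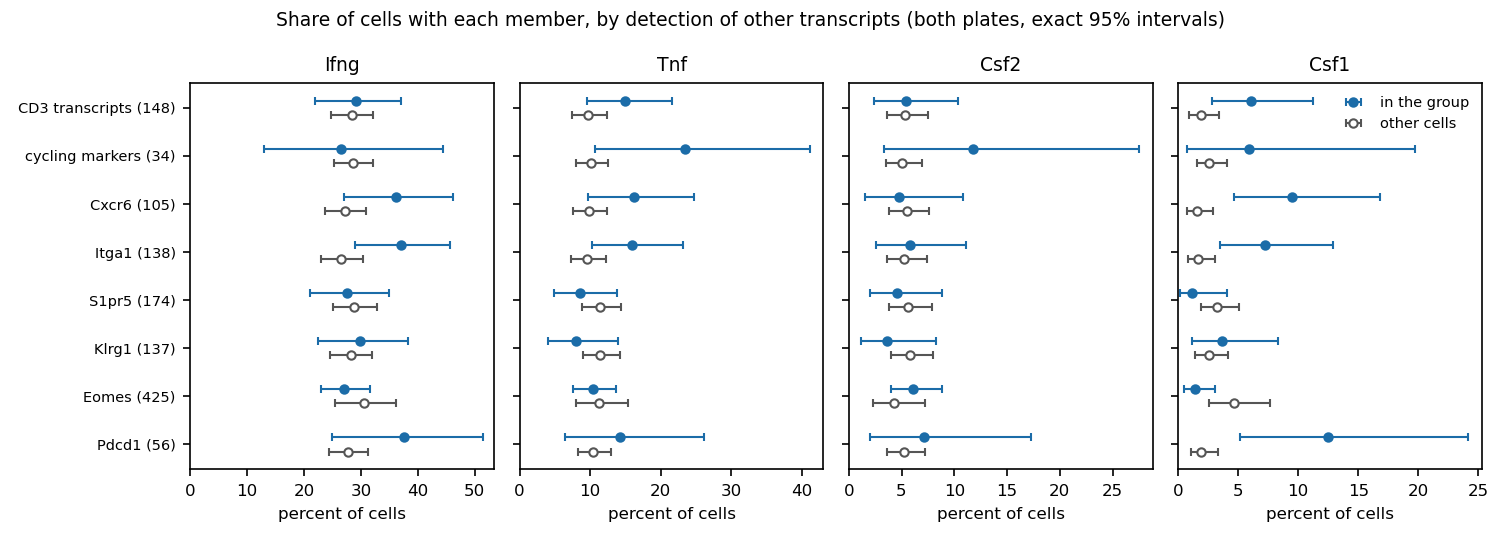
Percent of kept cells of both plates with each of the 4 transcripts (horizontal axis, exact 95% intervals), in cells in which another transcript or marker set was detected (filled, number of cells in brackets) and in all other cells (open). The scale differs between panels; Csf1 is at 9.52% in cells with Cxcr6 and 1.61% in the others, with intervals apart.

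Cells with Pdcd1 transcript differed in Ifng on the WT plate. Ifng was present in 7 of 9 WT cells with Pdcd1 (77.8%, 39.99 to 97.2) and in 86 of the others (24.5%, 20.1 to 29.3). On the PD-1-/- plate it was present in 14 of 47 cells with Pdcd1 (29.8%, 17.3 to 44.9) and in 31.3% (26.3 to 36.8) of those without. A higher share with intervals apart in these WT cells was seen for 2.10% of entries. Of the 7 cells, 2 (wells A9 and A22) had under 20000 reads, and after thinning 5 of 7 cells had Ifng (71.4%, 29.04 to 96.3), against 22.9% (18.5 to 27.9). At least 2 of the cytokines were present in 5 of the 9 WT cells. All 9 lay in rows A and B of the WT plate. Row A of that plate held 11 Ifng cells among 17 (64.7%, 38.3 to 85.8), against a median of 27.3% over its 16 rows, so that plate position and Pdcd1 cannot be told apart here. Over the 16 rows the share of Ifng ran from 9.09% to 64.7% in WT and from 12.5% to 54.5% in PD-1-/- cells. Tnf was present in 7.07% of PD-1-/- cells in rows A to H and in 14.3% in rows I to P, and in 8.43% and 13.2% of WT cells.

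Other cytokine genes were either rare or found in many cells. Of 12 genes listed, Il4, Il13, Il17a and Il22 were found in 0 of 726 cells each, which allows up to 0.413%, and Il2, Il3, Il5 and Il10 occurred in at most 0.820% of the cells of a genotype. Ltb, a membrane-bound member of the TNF family, was carried by 63.1% of WT and by 59.8% of PD-1-/- cells. Lta, which lies beside Tnf in the genome, was present in 8.06% (5.46 to 11.4) and 6.01% (3.80 to 8.96), at a mean level of 31.2 and 16.9 RPKM (log2 ratio -0.85). The median log2 ratio of the 5 of these genes above 1 RPKM was -0.11, beside -0.03 over all 12030 entries, with 1 past 1.5-fold upward (Il2, in 1 and 3 cells) and 1 downward (Lta). Over all entries 10.96% were past 1.5-fold upward and 13.99% downward.

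For the receptors of the 4 cytokines, one chain of the IFN-γ receptor was detected in nearly every cell and the other in 8 cells. Ifngr1, the ligand-binding chain, was found in 98.9% of WT cells at a mean of 1679 RPKM and in 99.7% of PD-1-/- cells at 1856 RPKM. Ifngr2, the signalling chain, was detected in 7 WT cells and 1 PD-1-/- cell at means of 2.23 and 0.0259 RPKM. Both TNF receptors were common, with Tnfrsf1a in 33.9% and 36.3% and Tnfrsf1b in 48.3% and 50% of cells. The GM-CSF receptor chains were rare, with Csf2ra in 3.89% and 5.19% of cells and Csf2rb in 3 WT cells and 0 PD-1-/- cells. Csf1r, the receptor of M-CSF on macrophages, was found in 6 and 3 cells. Of these 8 genes 5 had a mean above 1 RPKM, and Ifngr2 was the 1 past 1.5-fold, lower in PD-1-/- cells on those 8 detections. A mean lower by 1.5-fold was seen for 13.99% of all entries.

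Receptors and factors known to induce the cytokines ran from rare to present in nearly every cell. Il2rb and Il2rg, chains of the IL-2 and IL-15 receptor, were present in 95% to 99.2% of cells. Il12rb2 and Il18r1, which bind IL-12 and IL-18, were present in 51.9% and 53.3% of WT cells and in 49.5% and 45.1% of PD-1-/- cells. Of 11 such receptors 1, Il15ra, was higher by 1.5-fold in PD-1-/- cells (19.6 and 32.1 RPKM), near the 10.96% of all entries. Of 17 transcription factors 3 were lower by 1.5-fold, near the 13.99% of all entries, namely Nfatc3 (13.5 and 6.90 RPKM), Nfkb2 (62.2 and 35.3 RPKM) and Jun, a subunit of AP-1 (42.6 and 23.7 RPKM), and for Jun the shares of 31.4% (26.6 to 36.5) and 19.9% (15.97 to 24.4) had intervals apart, as for 0.590% of entries. Tbx21 and Eomes, the T-box factors of NK cells, had log2 ratios of 0.21 and -0.22.

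Among 10 genes of mRNA decay and binding, Zfp36, which encodes tristetraprolin, differed between the plates. Its share was 40.6% (35.4 to 45.8) on the WT plate and 51.1% (45.8 to 56.3) on the other, and its mean level was 78.8 and 122.5 RPKM (log2 ratio 0.63). The interval ends were both 45.8 as rounded and did not overlap. Zfp36 alone of the 10 had intervals apart or a mean past 1.5-fold. Over all entries a higher share with intervals apart was seen for 0.565%, and a mean at least 1.5-fold higher for 10.96%. Zfp36l2 was the most widely detected of the 10, in 81.1% and 84.4% of cells, and Zc3h12a (Regnase-1) was present in 16.9% and 18.3%. Of the 3 genes for TNF shedding, the protease gene Adam17 was found in 22.5% and 22.95% of cells. Its partner Rhbdf2 was found in 3.33% (1.73 to 5.75) and 8.74% (6.06 to 12.1), with means of 3.37 and 9.13 RPKM. The Rhbdf2 intervals lay apart as well, and its means were more than 1.5-fold apart.

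Genes of IFN-γ signalling and response did not move together. Of 10, Iigp1 was past 1.5-fold upward and Cxcl9 and Cxcl10 downward in PD-1-/- cells, and these 3 were detected in at most 3.06% of the cells of a genotype. These counts are near the 10.96% and 13.99% of all entries. The widely detected response gene Irf1 had a log2 ratio of 0.04. Of 4 chemokines that NK cells release with IFN-γ, Ccl3 and Ccl4 were higher in PD-1-/- cells, with log2 ratios of 1.01 for Ccl3 (183.7 and 371.4 RPKM) and 0.87 for Ccl4 (582.6 and 1064 RPKM), and Ccl5 (0.20) and Xcl1 (-0.31) were not past 1.5-fold. Of 8 activation genes Nr4a2 and Egr2 were higher, at 10.7 and 24.7 RPKM and at 9.01 and 16.3 RPKM. Beside the chemokine and activation counts stand the same 10.96% of all entries past 1.5-fold upward. None of the 4 cytolytic genes Gzma, Gzmb, Gzmc and Prf1 was past 1.5-fold.

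Cells with at least 2 of the cytokines had higher mean levels of Egr1, Egr2 and Myc than cells with none. A mean at least 1.5-fold higher on both plates was seen for 4.52% of entries and a lower one for 13.4%, and the median over all entries of the lower of the 2 log2 ratios was -0.73. Of the 8 activation genes 3 were higher on both plates, and all 3 encode transcription factors. Egr2 was at a mean of 44.1 RPKM in the 21 WT cells and 7.82 RPKM in WT cells without a cytokine, and at 49.8 and 6.81 RPKM in the corresponding PD-1-/- cells. Egr1 was at 69.7 and 18.5 RPKM in WT and at 107.9 and 10.5 RPKM in PD-1-/- cells. Myc was 2.18-fold higher in WT cells with at least 2 cytokines and 2.41-fold higher in such PD-1-/- cells. Others of the list went the other way in WT cells, with folds of 0.656 for Cd69 and 0.616 for Nr4a1, against 2.41 and 3.08 in PD-1-/- cells. Nr4a3 was listed at 0 in all 21 WT cells and averaged 2.66 RPKM in those without a cytokine. The chemokine Xcl1 was higher on both plates as well, at 2213 and 1199 RPKM and at 3189 and 1117 RPKM, as were Adam17 (1.82 and 2.97-fold), Rhbdf2 (2.62 and 2.64-fold), Lta (3.94 and 3.47-fold) and the granzyme gene Gzmc at 1353 and 317.9 RPKM and at 1697 and 549.6 RPKM. Ccl3 was at 1085 and 230.1 RPKM on the PD-1-/- plate and at 137.1 and 135.1 RPKM on the WT plate, and the difference between the plates was not tested. None of the 10 decay genes and 1 of the 11 inducing receptors (Il18r1, lower) passed the fold on both plates, and of the 17 factors only Fos did, which was lower, as were Rhbdf1 and Cxcl10 in their lists.

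Ranked over all genes found in at least 20% of these cells at 10 RPKM or more, the 10 leading ones by the lower of the 2 folds were Egr2, Wdr89, Mtmr9, Egr1, Bag3, Gzmc, Fam19a3, Ly6a, Dmtf1 and Mapk3. Egr2 led with folds of 5.11 in WT and 6.50 in PD-1-/- cells, and Mapk3, which encodes the kinase ERK1, closed the list with 2.82 and 2.97. These limits were applied only in the cells with at least 2 cytokines, so that genes high in them were favoured, as for Wdr89, present in 23.8% of WT cells with at least 2 cytokines and 21.7% of those with none. With the limits set on all kept cells of each plate, a choice made after seeing the data, only Gzmc and Dmtf1 of the 10 remained among the leading 10. Gzmc then led with folds of 4.25 and 3.08, and the others were S100a4, Ubash3a, Gadd45g, Myc, Cd160, Ptpn9, Mtmr2 and Pagr1a, down to folds of 2.27 and 2.02. The ranking is thus given as a description of these cells. The cells with at least 2 cytokines had more detected genes than those with none, with medians of 2599 against 2238 in WT and 2524 against 2191 in PD-1-/- cells. CD3 chain transcripts were present in 28.6% against 16.3% of them in WT and in 45.8% against 23% in PD-1-/- cells. The part of either in these folds was not tested.

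The genes most like each cytokine across cells differed by cytokine. Likeness was the correlation of log2(RPKM + 1) over the kept cells of each plate, ranked by the lower of the 2 plates among 8140 entries found in 5 to 95% of cells, and given as a description. For Ifng the leading gene was Ccl4 (0.20 on both plates), followed by Rfk (0.17 and 0.19), Ccl3 (0.16 and 0.23), Csgalnact2 (0.14 and 0.15) and Rgs1 (0.14 and 0.12). For Csf2 they were Egr2 (0.17 and 0.36), Swt1 (0.15 and 0.16), Tuba8 (0.14 and 0.25), Mir6936 (0.14 on both) and Myc (0.13 and 0.19). For Tnf the first was Tnfsf8, the ligand of CD30 (0.15 and 0.16), and then BC068157, Zwint, Nmd3 and Alkbh7, none above 0.16. With the plain number of detected genes Tnf had correlations of 0.25 in WT and 0.15 in PD-1-/- cells, and Csf2 of 0.12 and 0.10. Those of Ifng were -0.03 and -0.04, and those of Csf1 -0.03 and -0.02. The part of this number in the rankings was not tested. For Csf1 they were Map1b (0.28 and 0.40), Ifitm2 (0.32 and 0.27), Dst (0.28 and 0.25), Ly6a (0.20 on both) and Trps1 (0.19 on both), on 9 and 11 cells with Csf1. All of these are weak. Within a plate the cells share library preparation but not depth, which ran from 1421 to 494441 reads in WT and from 1471 to 550601 in PD-1-/- cells. The correlations were not matched for depth.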

How the data were processed

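The authors deposited 1 table of RPKM per plate, with the wells as columns. The submitters' processing notes name TopHat and Cufflinks and the builds mm9 and mm10, with no role for either build, so the build behind the values is not settled here. The annotation and the counting tool are not given in the sources used here. Positions and sequences are from GRCm38 annotations and were matched by symbol, for 4 of 4 genes. All 768 columns, 384 per plate, were mapped to wells by their labels, and 360 WT and 366 PD-1-/- wells were kept.

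A transcript was called present above 0 RPKM. Reads were estimated from the steps in each gene's values (relative tolerance 1e-06) and scaled on 763 genes with 1 annotated coding transcript, 62.4% of which lay within 0.1 log2 of the common scale. For depth-matched shares each cell was thinned to 100000 reads, which left out 26 WT and 14 PD-1-/- cells. Shares have exact (Clopper-Pearson) 95% intervals. A share of 0 is given with the limit that 3 cells allow. Log2 ratios are on the scale of log2(mean RPKM + 1). The calculations were tested on simulated data. They were made with Python 3.11.15, numpy 2.4.6, pandas 2.3.3, scipy 1.17.1 and statsmodels 0.14.6.

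Doublets were not called, and the limit of 3500 detected genes was the only guard against them. The genes, lists and alternatives were chosen with earlier results of these data known. Named were the 4 cytokines, the listed genes, for each cytokine the 5 entries most like it, and the 10 entries of the largest fold in cells with at least 2 cytokines. Results for certain genes are not reported here.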

Additional observations from a re-analysis of the deposited data

Results flagged for a closer look

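The wells above the upper limit of 3500 detected genes entered no comparison, and all 4 transcripts were present in them. Of these 30 wells, 50% (31.3 to 68.7) had Ifng, 30% (14.7 to 49.4) had Tnf, 13.3% (3.76 to 30.7) had Csf2, 13.3% (3.76 to 30.7) had Csf1, and 23.3% (9.93 to 42.3) had at least 2 of them. The highest Csf2 value of the series, 8852 RPKM from 2741 reads, was in such a WT well of row A, which also had 1877 RPKM of Ifng. Another WT well of row A had 5899 RPKM of Ifng and 2663 RPKM of Csf2. In the 12 wells below 1000 detected genes none of the 4 transcripts was found, which allows a share of up to 25%. Whether wells above the limit hold more than 1 cell was not tested.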

How the results depend on the processing

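Of 90 recalculated shares of cells 87 stayed within the exact interval of the reported share. The exceptions were Tnf in PD-1-/- cells, at 14.3% in the lower plate rows (I to P) and 7.07% in the upper rows (A to H), and Csf1 in WT cells, at 0.549% in the lower rows. The ratios of means moved more. For Tnf the upper rows gave a log2 ratio of -0.60. For Csf2 it was -2.21 with every well kept, 0.67 with 1500 to 3000 detected genes, 0.61 without rows A and B, -0.67 in the upper and 0.64 in the lower rows, and 0.64 after thinning. For Csf1 it was 0.76 with 1500 to 3000 detected genes and 0.76 without cells with CD3 transcripts, -0.96 in the upper and 2.17 in the lower rows, 0.71 after thinning and 0.82 without cells under 100000 reads, a setting chosen after seeing the data. The Ifng ratio lay between 0.37 and 0.90, and was under 1.5-fold with every well kept (0.37), in the lower rows (0.47) and without the top cell of each plate (0.52, also chosen after seeing the data). The median of Csf1 in WT cells was 6.55 RPKM in the lower rows, in 1 cell, and the difference in the share with Csf1 between cells with and without Tnf was -3.89 points in the upper rows, against -1.65. The causes were not tested. No paired analysis was possible because each genotype is 1 pool on 1 plate. Depth limits what a 0 shows, since 40 kept cells had under 100000 reads.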
